A study of Mus musculus with 12 samples.

Results

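Skin from the ageing model was compared with control skin across all measured genes, leaving aside the genes of the hair shaft and of skeletal muscle. The comparison used 8 of the 12 libraries in the study, 4 labelled Model and 4 labelled Ctrl in the sample titles. Each library was a bulk RNA-seq library from mouse skin. Ctrl was control skin. Model was skin in which ageing had been induced with D-galactose, a sugar that raises oxidative and glycation load when given in excess, combined with ultraviolet A and ultraviolet B light. The other 4 libraries (M+NSPCC1) came from the same model with the grape seed extract NSPCC1. They entered the fit and are given only side by side. The labels name no genotype or allele, and strain, sex, age, dose, duration, body site and time of collection remain not given in the sources used here. Nor do they state that each sample was its own animal. The p-values therefore rest on the spread between these samples alone, part of which may be technical.

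Skin is layered. Keratinocytes of the epidermis divide in a basal layer, which is anchored to a basement membrane, and move outward while they build desmosomes, keratin filaments and a cornified envelope sealed with lipids. Below lies the dermis, where fibroblasts lay down collagen, elastic fibres and proteoglycans among vessels, nerves and immune cells. Hair follicles and their sebaceous glands reach through the dermis to fat and a thin sheet of skeletal muscle. Follicles cycle between rest and growth, and in growth their matrix cells divide quickly and take up pigment from melanocytes. A bulk library averages all of these, so that fewer cells of a type and less RNA per cell cannot be told apart.

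The summed estimated counts of the libraries lay between 9717346 and 10952630. A gene's value is its count scaled to library size with TMM factors (CPM), and differences are log2 fold changes of Model over Ctrl from the fit. Below, a gene said to rise or fall by an amount, and a signed value after a gene name, are such differences, and 4 CPM values in a row are libraries 01 to 04. The tables list selected transcripts of 7902 genes, mostly of genes that differ from Ctrl, and many genes are present through only part of their isoforms, so each value describes the listed transcripts. Keratinocyte and fibroblast markers of the check list that were in the tables (Krt5, Krt10, Trp63, Col3a1 and Dcn) were present in all 8 libraries. Markers of liver, pancreas and brain (Alb, Apoa1, Ttr, Ins2, Gfap and Snap25) were not among the listed genes. Hair shaft genes made up 0.0213% to 0.0663% of the summed count in Ctrl and 9.32% to 13.4% in Model libraries. Skeletal muscle genes made up 12.1% to 12.6% and 0.731% to 2.50%. These shares differ between the groups in every comparison that follows, and their part in the results was not tested.

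The Model libraries varied more than the Ctrl libraries. The median SD of log2 CPM over 6275 genes was 0.242 in Model and 0.147 in Ctrl libraries. Model 02 and Model 03 stood farthest apart, with muscle shares of 0.731% and 2.50% and hair shares of 13.4% and 9.32%. Among the 2717 genes outside the hair and muscle lists that changed beyond 2-fold, Model 03 was the Model library nearest the Ctrl mean for 2080 (76.6%). Model 02 was the farthest for 1623 (59.7%). Both carry the same label, and both were kept.

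Of 7638 genes tested with edgeR's quasi-likelihood test, 6913 (90.5%) had a Benjamini-Hochberg adjusted p below 0.05 and are said to have passed. In Model skin 3753 genes rose (49.1% of all tested genes) and 3160 fell (41.4% of all tested genes). Beyond a 2-fold change, 2859 genes passed (37.4%), with 1308 rises (17.1%) and 1551 falls (20.3%). The groups did not overlap at 6344 of the 7638 tested genes, so a lack of overlap at a named gene is the common case. Since the listed genes mostly differ from Ctrl and the basis of their choice is not stated, these shares describe the tables, and a list in which most members passed is near the background. Rises and falls counted in a list are to be read against the 49.1% and 41.4% of all genes. The median log2 fold change over all tested genes was 0.25, and list medians are to be read against it. It was 0.08 with DESeq2's size factors and 0.43 with whole-library depth. Rises made up 45.7% of the changes beyond 2-fold, against 56.7% with limma on log2(FPKM + 1), 55.5% on log2(FPKM + 0.1) and 54.8% with whole-library depth. Outside the hair and muscle lists 3657 genes rose and 3112 fell.

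**Figure D1:**
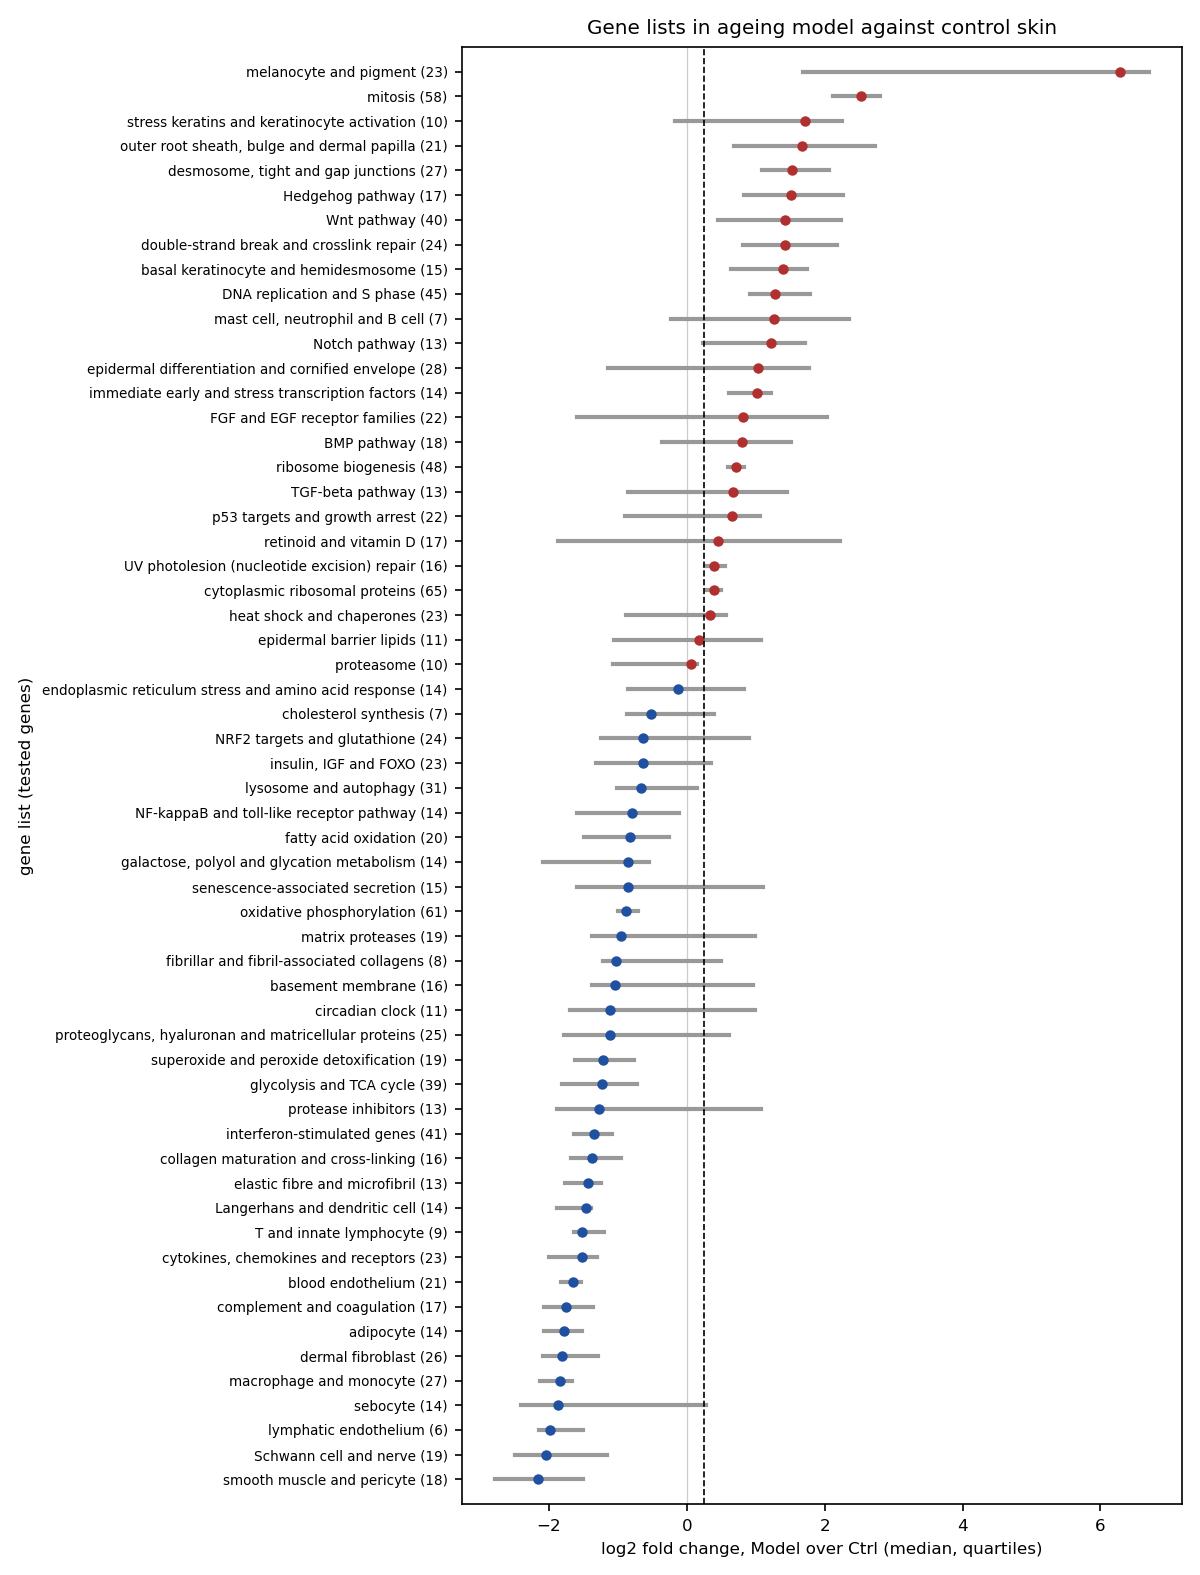
Median log2 fold change of Model over Ctrl (horizontal axis) for the 58 gene lists (vertical axis, 1 row each), with bars from the lower to the upper quartile of the tested members. The dashed line is the median of all tested genes, 0.25; the melanocyte list lies farthest right at 6.28 and the smooth muscle and pericyte list farthest left at -2.16.

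Basal keratinocyte genes were mostly higher in Model skin. Of 15 tested members, 11 rose and 3 fell, with a median of 1.39. Krt5, a keratin of the basal layer, read 2852, 2330.0, 2489.8 and 2893 CPM in Ctrl and 3597, 3263, 5792 and 4752 CPM in Model libraries 01 to 04. All Model values lay above all Ctrl values, with the highest in Model 03, and the log2 fold change was 0.72 (SE 0.20; adjusted p = 0.00493). Trp63, the transcription factor that maintains stratified epithelium, rose from 145 ± 18.0 to 481 ± 42.5 CPM (SD, n = 4 each), a log2 fold change of 1.73. Cdh3, the placental cadherin of basal and follicle matrix cells, was at 22.0, 22.0, 22.0 and 23.9 CPM in Ctrl and 281, 322, 215 and 342 CPM in Model. Its log2 fold change of 3.69 was the highest in the list. Tfap2a, a transcription factor of ectoderm, rose by 2.39. The integrin gene Itga3 rose by 1.39. The hemidesmosome genes Dst and Itgb4 had -1.78 and -5.03. Itgb4 was listed with 1 transcript, where RefSeq holds 2 curated ones.

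Differentiation genes of the epidermis split. Of 28 tested members 17 rose and 9 fell. Among the members that fell were filament proteins, secreted proteins and an envelope protein of the differentiated layers. Krt10, the keratin of suprabasal cells, fell by 1.82, Krt77 fell by 2.63, and Flg2, a filaggrin-like protein of the granular layer, fell by 2.09. Flg2 read 1653, 1458, 928 and 1466 CPM in Ctrl and 305, 234, 476 and 282 CPM in Model, and its Model value was again highest in Model 03. Krtdap, Dmkn and Sbsn, secreted products of differentiating keratinocytes, had -1.85, -1.58 and -1.28. Lce1m, a late cornified envelope protein, had -2.37.

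Among the members that rose were regulators, transglutaminases, envelope precursors and the plaque protein Evpl. Zfp750, Grhl1 and Ovol1, transcription factors of keratinocyte differentiation, rose by 2.19, 2.05 and 2.44. Tgm1, which cross-links the cornified envelope, rose by 1.68. Tgm3, a transglutaminase of the epidermis and the hair follicle, rose from 5.61 ± 1.65 to 198 ± 88.9 CPM (SD, n = 4 each; log2 fold change 5.14). Sprr1a, an envelope precursor, read 159, 160.0, 386 and 217 CPM in Ctrl and 1483, 1408, 2324 and 1547 CPM in Model, with no overlap (log2 fold change 2.87, SE 0.28). Cnfn, Calml3, Rptn and Evpl rose by 1.16, 1.43, 1.36 and 1.33. Krt2, a keratin of the upper epidermal layers, is listed with 1 transcript, where RefSeq holds 2, 1 of them curated. Which of these is listed is not known here. The listed transcript had no count in any Ctrl library and 10.7, 13.9, 3.37 and 7.46 CPM in Model. It was at least 108-fold higher (3 counts over the Ctrl group as the floor). Casp14, a protease of cornification, had 0.37 and did not pass. The summed share of the list was 1.39% to 1.86% in Ctrl and 0.907% to 1.37% in Model libraries, without overlap.

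Cell junction genes rose almost throughout. Of 27 tested members, 26 rose, against 49.1% of all genes, 18 of them beyond 2-fold, against 17.1%. Tjp3, a tight junction scaffold, was the member that fell (-1.77). It was listed with 1 transcript, where RefSeq holds 4. Gap junction genes led the list. Gjb2, which encodes connexin 26, read 13.9, 22.8, 52.9 and 12.4 CPM in Ctrl and 1481, 1736, 1165 and 1869.7 CPM in Model (log2 fold change 5.94, SE 0.46, adjusted p = 5.62e-07). Gja1, which encodes connexin 43, went from 299 ± 20.7 to 2634 ± 485 CPM (SD, n = 4 each; log2 fold change 3.14). Gjb6, for connexin 30, rose by 4.40. Among tight junction genes Cldn1 rose by 1.75, Cldn4 by 2.50 and Cldn8 by 2.84. Among desmosome genes Dsp, the plaque protein that holds keratin filaments, rose by 1.53, Pkp3 by 2.02 and Dsg2 by 2.16. Cdh1, the epithelial cadherin of adherens junctions, read 233, 185, 183 and 239 CPM in Ctrl and 557, 599.8, 529 and 624 CPM in Model. In the rising genes named here the lowest Model library was above the highest Ctrl library.

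**Figure D2:**
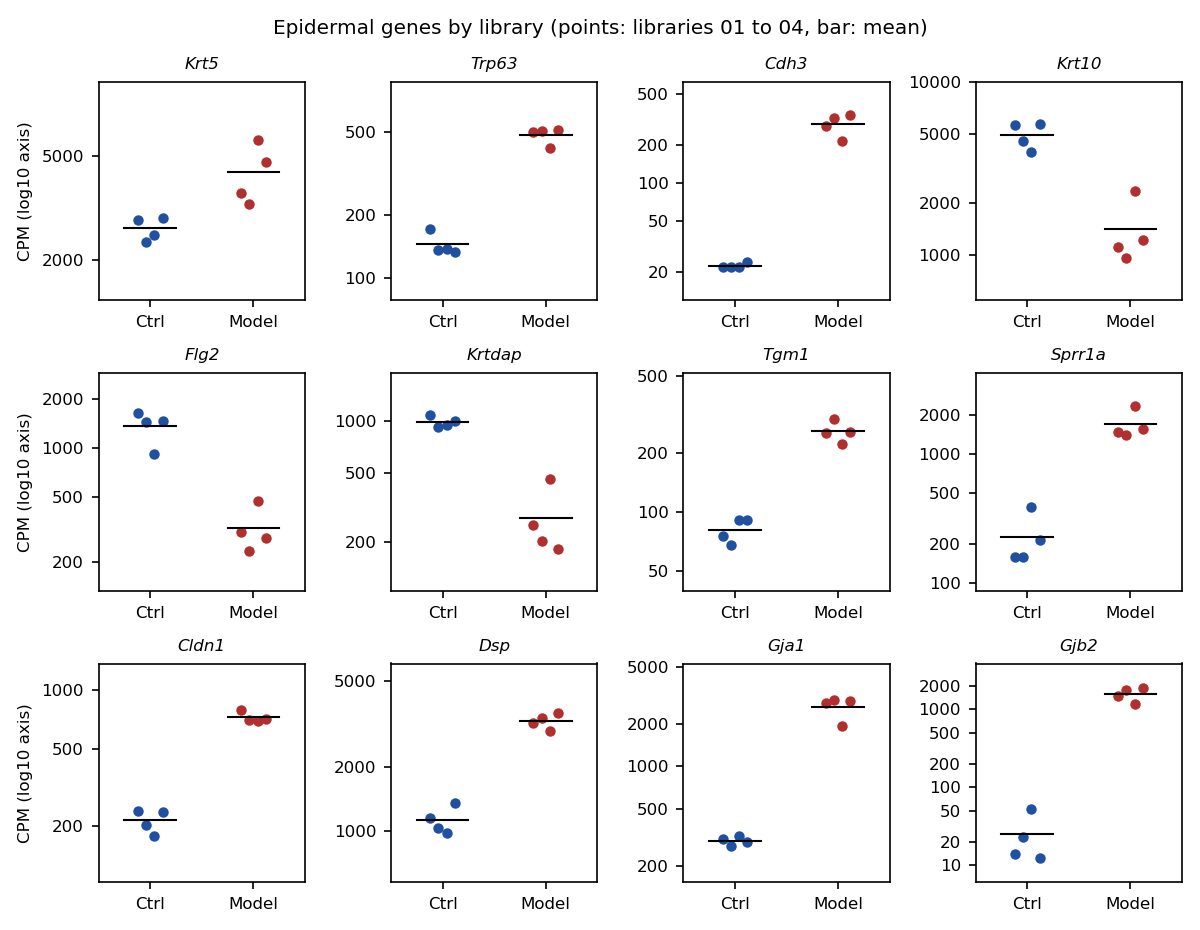
CPM (log10 axis) of 12 epidermal genes in each of the 4 Ctrl and 4 Model libraries (points) with the group mean (bar). Krt10, Flg2 and Krtdap sit lower in Model libraries, and Gjb2 rises from a mean of 25.5 to 1563 CPM.

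Activation genes of keratinocytes gave a mixed picture. Krt17, a keratin of follicle outer cells and of stressed epidermis, rose by 2.14, from 703 ± 65.6 to 3104 ± 289 CPM (SD, n = 4 each). Areg and Tgfa, ligands of the epidermal growth factor receptor, rose by 2.53 and 2.34, and Btc, a ligand of the same family, had -2.54. The alarmin S100a8 read 4.09, 4.20, 26.4 and 9.61 CPM in Ctrl and 25.1, 48.0, 119 and 25 CPM in Model. It was highest in Model 03, and its log2 fold change was 2.29 (adjusted p = 0.0394). It did not pass without Model 03 (adjusted p = 0.137) or without Ctrl 01, 02 or 04 (0.0798 to 0.0927), or with DESeq2's size factors (0.057). Its partner S100a9 had 1.75 and did not pass. Barrier lipid genes were as divided, with 6 rises and 4 falls among 11 tested (5 and 5 with DESeq2's size factors). Cers3, the ceramide synthase of the barrier, rose by 0.99 and Pnpla1 by 1.17, and Elovl1 had -1.53 and Aloxe3 -1.19.

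Lipid synthesis genes of the sebaceous gland and of fat were lower in Model skin. Of 14 tested sebocyte genes 10 fell and 4 rose (median -1.86). Fasn, fatty acid synthase, read 8237, 10135, 8207 and 9307 CPM in Ctrl and 884, 977, 1886 and 975 CPM in Model. Model 03 was the highest Model library and still below every Ctrl library (log2 fold change -2.93, SE 0.23). Acly, which supplies acetyl-CoA, had -2.38, Acaca, the carboxylase that follows it, -2.42, and Dgat2, which completes triglycerides, -2.18. The sebocyte genes Elovl3, Mc5r and Fads2 rose, by 0.74, 0.94 and 1.23. The summed share of the list was 2.72% to 3.51% in Ctrl. It was 1.46% in Model 03 and between 0.609% and 0.653% in the other Model libraries. Of 14 adipocyte genes 13 fell. Thrsp, a lipogenic nuclear protein, went from 1467 ± 257 to 199 ± 126 CPM, Gpd1 had -1.98, Adrb3 -1.86 and Retn -1.21. Cholesterol synthesis showed no common direction, with 2 rises and 3 falls among 7.

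In the dermal matrix, the enzymes that fold and cross-link collagen were mostly lower in Model skin. Of 16 maturation and cross-linking genes 15 fell (median -1.37), against 41.4% of all genes, and 10 fell beyond 2-fold, against 20.3%. Loxl1, a lysyl oxidase of elastic fibres, read 302, 334, 392 and 372 CPM in Ctrl and 68.0, 49.6, 143 and 66.5 CPM in Model (log2 fold change -2.10, SE 0.30). Pcolce, which speeds the removal of the collagen propeptide, went from 517 ± 68.6 to 184 ± 52.6 CPM (SD, n = 4 each). P4ha2, a prolyl hydroxylase, had -1.55 and Serpinh1, the collagen chaperone, -1.36. Plod2, the lysyl hydroxylase of collagen telopeptides, moved the other way and rose from 2.63 ± 2.07 to 23.9 ± 1.61 CPM, a log2 fold change of 3.18. It was listed with 1 transcript, where RefSeq holds 3, so the value may not describe the whole gene. Among 8 fibrillar and fibril-associated collagen genes 4 fell, 2 rose and 2 did not pass, so that the falls were near the 41.4% of all genes. Beyond 2-fold 1 fell and 1 rose, against 20.3% and 17.1% of all genes. Col5a1 had -1.18 and Col14a1 -1.20, and Col11a1 and Col12a1 rose by 3.73 and 0.65. The groups overlapped at Col12a1, with 201 CPM in Model 02 and 235 CPM in Ctrl 04.

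Elastic fibre genes fell in 12 of 13 cases (median -1.43). Fbn1, fibrillin 1 of the mature microfibril, read 1008, 1056, 1143 and 1059 CPM in Ctrl and 319, 204, 462 and 339.8 CPM in Model, highest in Model 03 (log2 fold change -1.69). Fbn2, fibrillin 2, which is best known from developing tissue, rose from 4.08 ± 1.39 to 15.6 ± 3.90 CPM (log2 fold change 1.93). It too was listed with 1 transcript, where RefSeq holds 3. Among proteoglycans and matricellular proteins 16 of 25 fell and 8 rose. Ogn, Fmod and Lum, small leucine-rich proteoglycans that bind collagen fibrils, had -1.60, -1.83 and -1.02. Tnc and Postn, matricellular proteins of growing and healing skin, rose by 1.81 and 0.93. Has3, a hyaluronan synthase, rose by 1.78 and Cemip, which degrades hyaluronan, by 3.41. The groups overlapped at Has3, with 25.7 CPM in Ctrl 03 and 25.3 CPM in Model 03. Cemip averaged 1.25 CPM in Ctrl and 13.4 CPM in Model. Has3 and Cemip were listed with 1 transcript each, where RefSeq holds 5 and 4. Bgn had 0.17 and did not pass.

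The basement membrane list split by chain. Laminin chains of the dermis, vessels and muscle were lower, with Lama4 at -1.56, Lama2 at -1.32 and Lamb2 at -1.81. Lama5, a chain of epithelial basement membranes, rose by 1.57, as did Fras1 (2.34) and Egfl6 (1.79), which belong to the junction of epithelium and dermis. Col7a1, the anchoring fibril collagen, had -1.27. Matrix proteases fell in 13 of 19 cases, against 41.4% of all genes. Mmp15 had -1.19, Plau -0.71 and Plat -0.78, and Adamts18 rose by 5.66. Protease inhibitors fell in 9 of 13, against the same 41.4%. Timp2, an inhibitor of matrix metalloproteinases, went from 1636 ± 124 to 679.9 ± 292 CPM, and Spint1, an inhibitor of epithelial serine proteases, rose by 3.08. In the TGF-beta pathway 9 of 13 rose, against 49.1% of all genes, and 4 fell. The inhibitory Smad7 and Smad6 rose by 1.46 and 1.94, and the receptor Tgfbr2 had -1.52. Fibroblast genes fell in 24 of 26 cases, and their summed share was 2.43% to 2.74% in Ctrl and 0.537% to 1.42% in Model, with Model 03 highest.

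**Figure D3:**
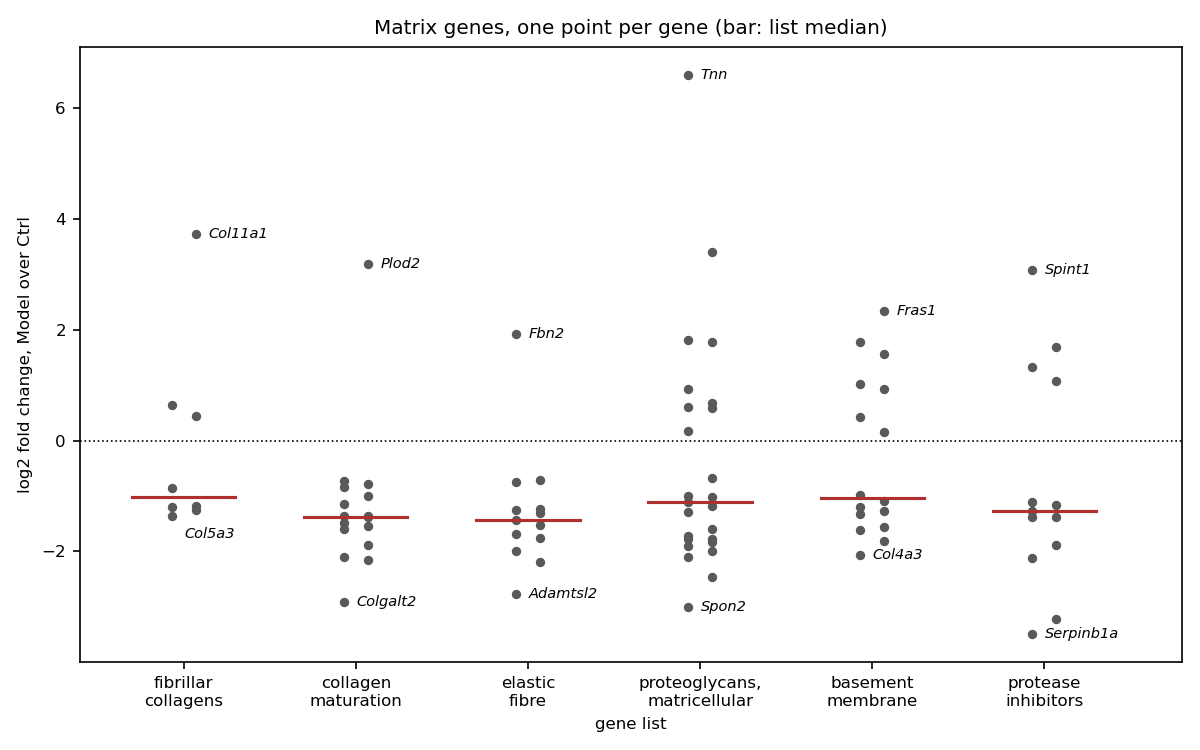
Log2 fold change of Model over Ctrl (vertical axis) of each tested gene (point) in 6 matrix lists (horizontal axis), with the list median as a bar and the dotted line at 0. In collagen maturation all points but Plod2 (3.18) and in the elastic fibre list all but Fbn2 (1.93) lie below 0. Plod2 and Fbn2 were each listed with 1 transcript, where RefSeq holds 3.

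Genes of DNA replication and of mitosis were higher in Model skin. Of 45 replication genes 44 rose (median 1.28), and E2f1 had -0.18 and did not pass. Mcm2, a subunit of the replicative helicase, read 40.4, 37.8, 49.7 and 40.5 CPM in Ctrl and 117, 129, 86.8 and 122 CPM in Model. Model 03 was the lowest Model library and above all Ctrl libraries (log2 fold change 1.44). Rrm2, the regulated subunit of ribonucleotide reductase, rose by 2.07, Pcna, the sliding clamp, by 0.82, and E2f2, an activator of S phase genes, by 2.95. Of 58 mitosis genes 56 rose (median 2.53), 54 of them beyond 2-fold, against 17.1% of all genes. Cdk1, the mitotic kinase, read 23.0, 17.8, 25.8 and 20.1 CPM in Ctrl and 121, 138, 70.4 and 109.5 CPM in Model (log2 fold change 2.34, SE 0.19). Its partners Ccnb1 and Ccna2 rose by 2.74 and 2.54, and Foxm1, a transcription factor of mitotic genes, by 2.64. Pttg1, the securin that holds sister chromatids until anaphase, fell by 1.36. It was listed with 2 transcripts, where RefSeq holds 3 curated ones.

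For the mitosis, replication, pigment and clock lists, the 250 bases before RefSeq start sites (GRCm38.p6) were searched on both strands. The letters were those that known regulators of these sets recognise. Members were searched whatever their change. The shares therefore describe the lists and not the change in Model skin. Cell cycle promoters commonly carry TTTGAA, the core of the cell cycle homology region, and CCAAT, the box bound by NF-Y. TTTGAA occurred in 19 of 53 windows of 48 matched mitosis genes (35.9%) and in 16.0% of all 32851 windows. CCAAT occurred in 39 (73.6%) and in 33.9%. For 37 matched replication genes, GCGGGAA, a site of the E2F type, was in 24.4% of 45 windows against 3.82% of all, and GGCGGGA, which overlaps it, in 26.7% against 9.75%. CATGTG, the core of the M-box recognised by the melanocyte factor Mitf, was in 36.4% of 22 windows of 17 pigment genes against 12.2%. CACGTG, searched in the clock list, was in 23.1% of 13 windows of 9 genes against 6.02%. Windows differ in base composition. Mean GC content was 58.3% in the mitosis, 59.6% in the replication, 54.0% in the pigment and 69.1% in the clock windows, and 53.2% in all. A match is a description of letters, not of binding. The windows of Cdk1 and Top2a show the mitotic letters, those of Rrm1 the E2F letters and those of Tyr and Tyrp1 the pigment letters, with matches in capitals, 5′ to 3′ up to the start site:
Cdk1, chr10:69352913-69353162, minus strand: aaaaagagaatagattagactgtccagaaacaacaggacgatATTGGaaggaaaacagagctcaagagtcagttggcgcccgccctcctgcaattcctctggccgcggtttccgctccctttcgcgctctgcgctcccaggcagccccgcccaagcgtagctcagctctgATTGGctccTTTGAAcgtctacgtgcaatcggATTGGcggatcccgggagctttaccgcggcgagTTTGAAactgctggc
Top2a, chr11:99024190-99024439, minus strand: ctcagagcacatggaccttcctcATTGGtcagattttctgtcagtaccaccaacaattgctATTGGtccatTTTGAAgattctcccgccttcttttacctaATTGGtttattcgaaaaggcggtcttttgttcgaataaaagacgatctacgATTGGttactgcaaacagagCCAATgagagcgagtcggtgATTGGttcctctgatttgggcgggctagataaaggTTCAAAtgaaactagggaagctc
Rrm1, chr7:102441445-102441694, plus strand: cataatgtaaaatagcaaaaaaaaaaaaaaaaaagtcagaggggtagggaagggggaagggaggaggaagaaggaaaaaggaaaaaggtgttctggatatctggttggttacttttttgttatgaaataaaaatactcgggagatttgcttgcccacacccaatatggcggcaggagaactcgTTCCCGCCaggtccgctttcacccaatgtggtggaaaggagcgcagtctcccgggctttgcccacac
Tyr, chr7:87493513-87493762, minus strand: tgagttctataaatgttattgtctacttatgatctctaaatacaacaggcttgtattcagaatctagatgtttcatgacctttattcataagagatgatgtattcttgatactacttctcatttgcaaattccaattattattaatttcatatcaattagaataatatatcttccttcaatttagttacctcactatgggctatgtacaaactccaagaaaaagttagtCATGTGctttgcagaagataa
Tyrp1, chr4:80833963-80834212, plus strand: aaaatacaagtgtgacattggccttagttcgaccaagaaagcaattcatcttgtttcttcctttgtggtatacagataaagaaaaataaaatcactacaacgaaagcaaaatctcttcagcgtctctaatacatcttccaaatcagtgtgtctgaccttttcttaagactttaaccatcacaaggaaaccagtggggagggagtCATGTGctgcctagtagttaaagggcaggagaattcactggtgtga

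The genes with these windows differed in level between the groups as follows. Top2a, the topoisomerase that untangles chromosomes in mitosis, rose by 2.89, and Rrm1, the large subunit of ribonucleotide reductase, by 1.41. Tyr and Tyrp1, enzymes of melanin synthesis, rose by 7.57 and 5.98. Tyrp1 read 8.07, 9.50, 4.29 and 9.39 CPM in Ctrl and 476, 644, 228 and 629 CPM in Model, where Model 03 was lowest.

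Genes that answer DNA damage did not share a direction. Of 22 p53 target and growth arrest genes 14 rose, against 49.1% of all genes, and 7 fell (median 0.65). Ccng1, a cyclin induced by p53, read 700.2, 716, 703 and 688 CPM in Ctrl and 173, 107, 212 and 112 CPM in Model. The groups did not overlap, and it fell by 2.21 on the log2 scale (SE 0.20). Phlda3, a p53 target that restrains Akt, had -1.02, and Eda2r, a receptor induced by p53, -2.81. Cdkn2b, an inhibitor of the kinases Cdk4 and Cdk6, rose from 9.03 ± 1.13 to 24.3 ± 3.02 CPM (log2 fold change 1.43), Plk2 by 0.91 and Sesn2 by 0.94. Nucleotide excision repair removes the lesions that ultraviolet light leaves in DNA. Of 16 genes of this list 12 rose and 1 fell, 0 beyond 2-fold, and the median of 0.40 was close to that of all genes. Ddb1, part of the sensor of these lesions, had 0.37, Rad23b 0.40 and Gtf2h3 0.71. Double-strand break and crosslink repair genes rose in 21 of 24 cases (median 1.43). Brca1, which takes part in repair by recombination, rose by 2.52. The replication and mitosis lists were higher in the same libraries, and their part in this was not tested.

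The secreted factors of senescent cells also split. Of 15 tested, 8 fell and 6 rose (median -0.85). Igfbp6 and Igfbp5, binding proteins of insulin-like growth factors made by dermal cells, had -2.50 and -2.28. Igfbp5 read 1055, 1809, 2016 and 1438 CPM in Ctrl and 297, 159, 588 and 259 CPM in Model. Cxcl2, a neutrophil chemokine, went from 0.332, 1.33, 1.29 and 2.05 CPM in Ctrl to 6.91, 1.76, 31.6 and 1.96 CPM in Model (log2 fold change 3.06). The groups overlapped, and the difference did not pass without Model 03 (adjusted p = 0.175) or without Ctrl 01, 02 or 03 (0.0526 to 0.0646). Pappa, a protease of these binding proteins, rose by 1.64. Hmgb2, a chromatin protein of dividing cells, rose by 2.23.

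Enzymes that handle galactose, polyols and glycation were mostly lower. Of 14 tested, 11 fell and 2 rose (median -0.85). Galk1, the kinase that opens galactose breakdown, read 29.5, 28.7, 34.5 and 31.3 CPM in Ctrl and 37.5, 40.4, 30.7 and 40.5 CPM in Model. The groups overlapped through Model 03, and the log2 fold change of 0.27 (SE 0.11) was near the median of all genes. It passed in the fit and did not pass with DESeq2's size factors (0.09), or without Ctrl 01, 02 or 04 or Model 01, 02 or 04 (adjusted p from 0.0525 to 0.0886). Ugp2, which makes UDP-glucose, went from 891 ± 87.3 to 198 ± 47.6 CPM (log2 fold change -2.17), and Pgm1 had -2.52, while Pgm2, a mutase of the same family, rose by 1.47. Akr1b3, the aldose reductase that turns sugars to polyols, had -0.75, and Sord, the next enzyme, -0.87. Fn3k, which removes early glycation products from proteins, had -2.83. Several of these enzymes are abundant in skeletal muscle, whose share of the count was lower in the same libraries. The part of muscle in these falls was not tested.

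Genes of energy metabolism were mostly lower in Model skin, the isoenzymes of muscle among them. Of 61 respiratory chain genes 60 fell (median -0.88), and of 39 glycolysis and citrate cycle genes 35 fell (median -1.23). Cox6a2, the muscle form of a cytochrome oxidase subunit, had -3.22 (SE 0.41), and Cox6a1, the form of other tissues, 0.20 (SE 0.07). Pgam2, the muscle phosphoglycerate mutase, read 1114, 1001, 1125 and 946 CPM in Ctrl and 128, 40.1, 161 and 52.8 CPM in Model. Pgam1, its counterpart elsewhere, read 329, 325, 354 and 364 and 392, 394, 396 and 371 CPM, and the log2 fold changes were -3.45 and 0.18. Per length, Pgam2 stood at 927 FPKM in Ctrl and 95.4 in Model, and Pgam1 at 118 and 151. Pfkm, the muscle phosphofructokinase, had -2.94 and Pfkl, the liver form, -1.27. Cpt1b, the muscle carnitine palmitoyltransferase that admits fatty acids to mitochondria, had -2.93, and Cpt1a, its counterpart, rose by 1.47. Aldoc, an aldolase of brain and other tissues, rose by 0.95. With DESeq2's size factors Cox6a1 had 0.03 and Pgam1 0.01, and neither passed. These pairs were set side by side after their values were seen, and the part of muscle in the falls was not tested. Among other subunits the values were smaller, with Uqcrc2 at -0.63, Atp5b at -0.51 and Cox4i1 at -0.59. Ucp2, an uncoupling protein of the inner mitochondrial membrane, rose from 634 ± 47.5 to 1738 ± 223 CPM (log2 fold change 1.45).

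**Figure D4:**
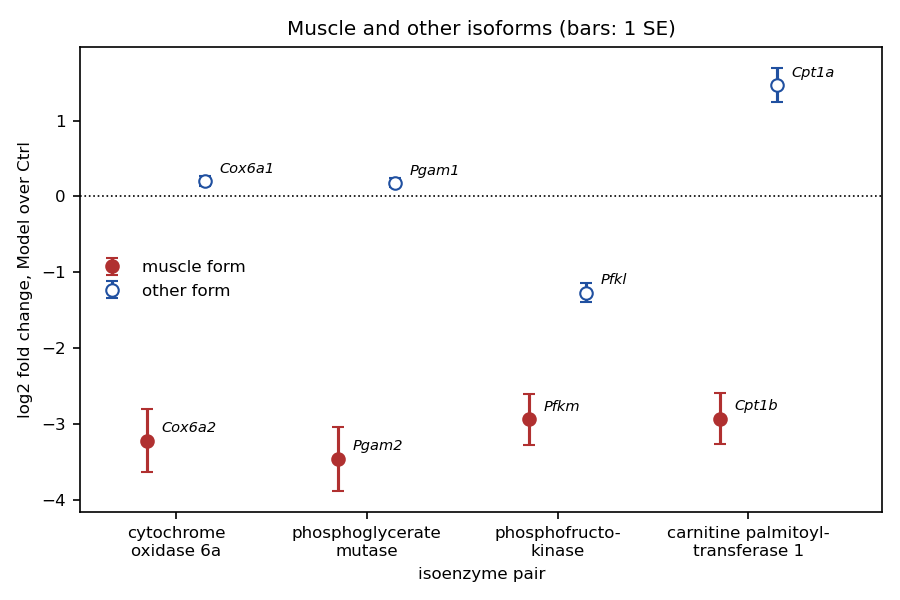
Log2 fold change of Model over Ctrl (vertical axis, bars are ± 1 SE) for 4 pairs of isoenzymes (horizontal axis), the muscle form in filled and the other form in open symbols. The muscle forms lie between -3.45 and -2.93; the other forms lie at -1.27 for Pfkl and at or above 0.18 for Pgam1, Cox6a1 and Cpt1a.

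Redox genes did not share a direction. Genes of glutathione synthesis rose. Gclc, the catalytic subunit of the rate-limiting ligase, read 54.7, 56.6, 54.5 and 57.3 CPM in Ctrl and 209.9, 220.5, 158 and 248 CPM in Model (log2 fold change 1.91, SE 0.12). Gclm, its modifier, rose by 1.22, Gss, the last enzyme, by 1.08, and Gsr, which recycles glutathione, by 0.83. Slc7a11, the cystine importer, rose by 6.38; it also belongs to the pigment list, since melanocytes use cystine for red pigment. Chac1, which degrades glutathione, rose by 3.30 and Gpx2, a peroxidase of epithelia, by 3.10. Other genes of the NRF2 list fell. Gpx3, the secreted peroxidase, went from 3006 ± 632 to 614 ± 331 CPM, and Fth1, of iron storage, from 3076 ± 363 to 1271 ± 519 CPM. Tkt had -1.57 and Gstm2 -1.12. In all 9 of 24 rose and 13 fell. Of 19 superoxide and peroxide genes 15 fell. Sod1, cytosolic superoxide dismutase, read 318, 361, 342 and 332 CPM in Ctrl and 139.6, 133, 189.5 and 122 CPM in Model (log2 fold change -1.21), and Sod3, the extracellular form, had -2.14. Prdx2 rose by 0.77, and the metal-binding Mt2 and Mt1 by 1.74 and 1.18.

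Immediate early genes, which respond within minutes to growth factors and stress, were higher. Of 14 tested, 12 rose (median 1.01). Egr1 read 128, 95.8, 163 and 172 CPM in Ctrl and 316, 306, 301 and 308 CPM in Model (log2 fold change 1.14), Junb rose by 1.01 and Dusp2, a phosphatase of MAP kinases, by 3.75. Atf3, a stress transcription factor, moved the other way from 65.1 ± 29.4 to 20.6 ± 4.75 CPM (SD, n = 4 each; log2 fold change -1.66), as did Klf2 (-1.83). Among 23 chaperones 14 rose (9 with DESeq2's size factors) and 8 fell. The falls were led by small heat shock proteins of muscle, Hspb7 (-3.24) and Cryab (-1.95). The chaperonin subunits Cct2, Cct3 and Cct7 rose by 0.72, 0.53 and 0.63. Endoplasmic reticulum stress genes had a median of -0.12, which turned to 0.05 with whole-library depth. Herpud1 had -0.90 and Trib3 -0.96, and the amino acid transporters Slc7a5 and Slc7a1 rose by 2.21 and 2.24.

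Protein synthesis genes rose by small amounts. Ribosome biogenesis genes rose in 46 of 48 cases (median 0.71). Ncl, nucleolin, went from 521 ± 35.9 to 1073 ± 209.7 CPM, and Fbl and Nop56, proteins of the nucleolar methylation complex, rose by 0.99 and 1.09. Ribosomal protein genes rose in 54 of 65 (37 with DESeq2's size factors), and their median of 0.40 was 0.14 above that of all genes. Proteasome genes did not share a direction. Psmb10, Psmb8 and Psmb9, the catalytic subunits of the immunoproteasome, had -1.39, -1.30 and -1.28. Psmb10 read 94.1, 89.6, 97.7 and 77.8 CPM in Ctrl and 34.6, 27.5, 50.1 and 24.9 CPM in Model. Psmb4 and Psma2 of the constitutive core had 0.07 and 0.07 and did not pass; with DESeq2's size factors both turned to -0.10. Lysosome and autophagy genes fell in 20 of 31 cases and rose in 8 (5 with DESeq2's size factors). Npc2, a lysosomal cholesterol carrier, had -1.07, and Npc1, its membrane partner, rose by 0.82.

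Clock genes did not share a direction. Nr1d1, the repressor REV-ERB alpha, read 451, 509.8, 385 and 506 CPM in Ctrl and 83.0, 49.0, 107 and 66.2 CPM in Model (log2 fold change -2.60, SE 0.24). Dbp, Tef and Nr1d2, output factors of the same phase, had -2.03, -1.48 and -1.11. Nfil3, the repressor that opposes Dbp at shared sites, rose by 1.42, and Cry1, a late repressor of the clock, by 1.05. The kinases Csnk1e and Csnk1d rose by 1.73 and 0.82. In the insulin and growth factor list 12 of 23 fell, against 41.4% of all genes, and 8 rose (5 with DESeq2's size factors). Irs1, an adaptor of the insulin receptor, had -1.09, Igf1, its growth factor relative, -1.73, and Foxo1 and Foxo3, transcription factors restrained by insulin, rose by 0.49 and 1.08.

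Genes of signalling pathways that act in the hair follicle mostly rose, among ligands, receptors and feedback inhibitors. In the Wnt pathway 31 of 40 genes rose and 9 fell (median 1.43). Among ligands Wnt5a rose by 2.26, Wnt10b by 2.23 and Wnt3a by 1.63, and Wnt2 had -2.97. Among receptors Fzd10 went from 21.6 ± 1.44 to 131 ± 44.0 CPM (log2 fold change 2.61), Fzd1 rose by 1.67 and Lgr5, the R-spondin receptor of follicle stem cells, by 2.42. Of the inhibitors, Wif1 and Nkd2 rose by 3.38 and 3.16, and the secreted Sfrp2, Sfrp4 and Sfrp5 had -2.14, -2.47 and -2.82. Bambi, another member of the list, rose by 4.29.

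Hedgehog genes rose in 13 of 17 cases. The targets Gli1, Ptch1 and Hhip rose by 1.87, 1.18 and 2.66. Gli1 read 35.1, 41.5, 24.6 and 33.9 CPM in Ctrl and 127, 132, 92.4 and 143 CPM in Model. Dhh, the ligand of Schwann cells, had -2.30 and Cdon, a co-receptor, -2.31. In the Notch pathway 10 of 13 rose. The ligand Jag1 and the receptor Notch1 rose by 1.86 and 1.95, and the vessel ligand Dll4 had -1.73. In the BMP pathway 13 of 18 rose. The targets Id1, Id3 and Id4 rose by 1.42, 1.18 and 1.93, and the ligand Bmp5 had -3.06. Among FGF and EGF family genes 14 of 22 rose, against 49.1% of all genes. Fgf5, the factor that ends hair growth, read 0.111, 0.331, 0.215 and 0.216 CPM in Ctrl and 21.7, 20.8, 16.2 and 31.2 CPM in Model (log2 fold change 6.61). Fgf18, a factor of the resting follicle, moved from 13.2 ± 2.31 to 2.63 ± 1.04 CPM (log2 fold change -2.33). In the retinoid and vitamin D list the vitamin D receptor Vdr rose from 92.2 ± 12.5 to 612 ± 73.0 CPM (log2 fold change 2.73), Stra6, the importer of retinol, rose by 4.66, and Lrat, which stores it as ester, by 3.26. Rarb and Rxrg, nuclear receptors for retinoids, had -3.77 and -3.43.

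Genes of macrophages, of Langerhans and dendritic cells, of the interferon response and of complement were mostly lower in Model skin. Of 27 macrophage genes 26 fell (median -1.83), against 41.4% of all genes. Csf1r, the growth factor receptor of macrophages, read 689, 551, 678 and 527 CPM in Ctrl and 126, 94.9, 307 and 144 CPM in Model. Model 03 was the highest Model library and below all Ctrl libraries (log2 fold change -1.86, SE 0.33). Mrc1, Lyz2 and C1qa had -1.63, -2.20 and -1.95, and Retnla, a product of alternatively activated macrophages, -2.90. Of 14 Langerhans and dendritic cell genes 12 fell and 1 rose, with the antigen presentation gene Cd74 going from 2344 ± 255 to 893 ± 605 CPM and H2-Aa having -1.33. The member that rose was Epcam, an adhesion molecule of Langerhans cells and of follicle epithelium (1.28). Of 9 lymphocyte genes 5 fell and 2 rose, and Cd3g had -1.63 and Cd2 -2.28. The members that rose were Gata3 and Lck. Gata3, a transcription factor that keratinocytes and the follicle also express, rose by 1.73. Lck, a kinase of T cells, read 0, 0, 0.215 and 0 CPM in Ctrl and 6.72, 4.91, 3.08 and 6.62 CPM in Model. It is listed with 1 transcript, where RefSeq holds 3 curated ones. The summed share of the list was 0.0312% to 0.0399% in Ctrl and 0.0356% to 0.0398% in Model libraries, with overlap. Cpa3, a mast cell protease, had -1.28. The list of mast cell, neutrophil and B cell genes it belongs to had 4 rises and 2 falls among 7 tested.

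Cytokine and chemokine genes fell in 19 of 23 cases. Ccl11 and Ccl24, chemokines for eosinophils, had -1.46 and -2.73, and Tslp, an epithelial alarmin, -2.49. Cxcl14, a chemokine of epithelium, rose by 2.27. Of 14 NF-kappaB and toll-like receptor genes 10 fell and 0 rose. Interferon-stimulated genes fell in 37 of 41 cases (median -1.35), against 41.4% of all genes. Beyond 2-fold 6 of the 41 fell, a smaller share than the 20.3% of all genes. Bst2, which tethers viruses to the cell, read 213, 81.0, 99.8 and 73.8 CPM in Ctrl and 25.4, 19.0, 49.9 and 23.3 CPM in Model (log2 fold change -1.99). Ifitm3 and B2m had -1.59 and -1.08. Complement and coagulation genes fell in 14 of 17 cases, with C3 at -1.76 and Cfp at -2.12. Procr, the protein C receptor, rose by 2.07. The median shift of the interferon list from the Ctrl mean was -0.57 in Model 03 and -2.09 in Model 02, and that of the macrophage list -0.98 and -2.50.

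Most genes of vessels, nerves and smooth muscle fell. Of 21 blood endothelial genes 20 fell (median -1.66). Tie1, a receptor of endothelium, read 119, 132, 123 and 118 CPM in Ctrl and 38.9, 18.6, 54.2 and 28.0 CPM in Model (log2 fold change -1.82), and Cldn5 had -1.79. Erg, an endothelial transcription factor, was the member that rose. It was listed with 1 transcript, where RefSeq holds 6 curated ones. The listed transcript was at 0 in every Ctrl library and 2.75, 3.80, 0 and 0 CPM in Model, so that the groups overlapped. All 6 lymphatic genes fell, with Lyve1 at -1.97. Of 19 Schwann cell and nerve genes 15 fell. Smooth muscle and pericyte genes fell in 15 of 18 cases. Des, which is also a member of the skeletal muscle list left aside here, had -3.09, and Lmod1, a smooth muscle actin nucleator, -2.87. The melanocyte list rose in 22 of 23 cases, with Rab32 as the member that fell (-0.75). Agouti (symbol a), the dermal papilla signal that switches melanocytes to yellow pigment, had a single count in Ctrl, in Ctrl 04, and read 44.4, 68.1, 32.8 and 73.3 CPM in Model. The ratio of Model to Ctrl was 2019 (exact 95% interval 362 to 79790.0, counting error only).

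**Figure D5:**
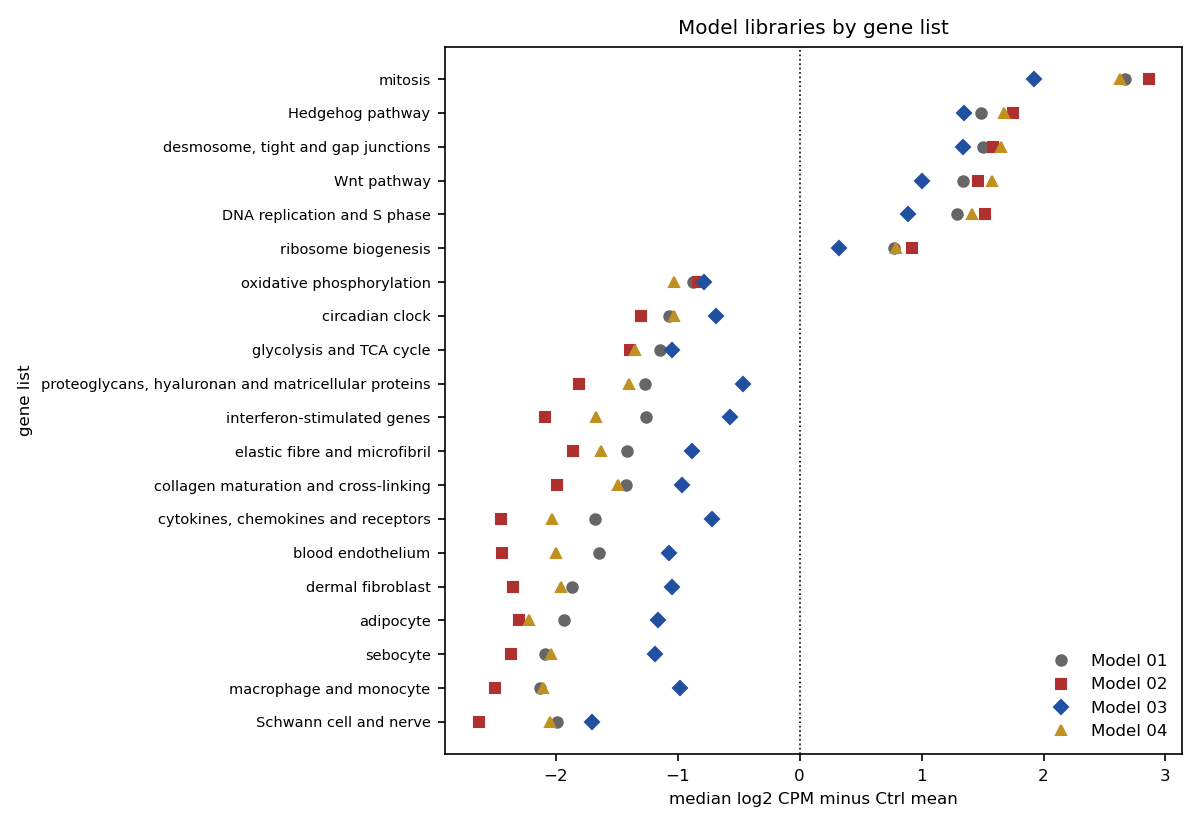
Median over a list's genes of log2 CPM minus the Ctrl mean (horizontal axis) in each of the 4 Model libraries (symbols) for 20 lists (vertical axis). In the macrophage list Model 03 is at -0.98 and Model 02 at -2.50, and in the mitosis list at 1.92 and 2.86.

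Outside the hair and muscle lists, the genes with the largest rises and falls were taken among genes with an established symbol whose higher group averaged 10 CPM or more. Larger values outside this rule belonged to predicted genes and to genes at lower levels. Calhm4, a member of a calcium channel family, read 0, 0.994, 0 and 0 CPM in Ctrl and 432, 906, 428 and 465 CPM in Model, a log2 fold change of 11.08 (SE 0.67). Vsig8, a membrane protein of the immunoglobulin family, read 0, 1.88, 0.429 and 0.108 and 720.2, 1447, 409 and 731 CPM. In Ctrl, Vsig8 and Calhm4 were both highest in Ctrl 02, which also had the highest hair share of the Ctrl libraries (0.0663%). In Model, both genes were highest in Model 02 and lowest in Model 03, as was the hair share (13.4% and 9.32%). The part of hair follicle content in these rises was not tested. Gja3, which encodes the lens connexin 46, had no count in any Ctrl library and 34.0, 55.6, 35.6 and 39.9 CPM in Model, at least 505-fold higher (3 counts over the Ctrl group as the floor). By the same bound Slc24a4, a sodium, calcium and potassium exchanger, was at least 299.8-fold higher. Ncapg2, a condensin subunit, was at least 395-fold higher, listed with 3 transcripts where RefSeq holds 9. Among the largest falls were genes with fewer listed transcripts than RefSeq holds, such as Snap23 (-6.56), Slc37a4 (-5.92) and Mars1 (-5.30). Snap23 has 1 listed transcript, where RefSeq holds 3 curated ones. Myog, the myogenic transcription factor, is a gene of skeletal muscle that the muscle list did not include. Myog is listed with 1 transcript, and RefSeq holds 1. It read 26.4, 22.0, 20.9 and 38.7 CPM in Ctrl and 0.758, 0.649, 0.695 and 0.839 CPM in Model (log2 fold change -5.18, SE 0.38).

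M+NSPCC1 libraries share the Ctrl libraries with the comparison, so their values are given only beside it. Median log2 fold changes over Ctrl in Model and in M+NSPCC1 were 1.53 and 1.42 for junctions, -1.37 and -1.28 for collagen maturation, and -1.83 and -1.99 for macrophages. They were 2.53 and 2.71 for mitosis, and -1.35 and -1.53 for interferon-stimulated genes. Fasn averaged 1283 CPM and Gjb2 1266 CPM in M+NSPCC1 libraries.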

How the data were processed

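Per the labels' protocols, skin RNA was extracted with TRIzol and sequenced as mRNA libraries. HISAT2 2.2.1, RSEM 1.3.1, DESeq2 1.34.0 and the mouse build mm10 appear, without roles, in the submitters' processing notes. For each sample the authors deposited estimated counts (not whole numbers for 69.5% of genes, at a tolerance of 0.011 per transcript) and FPKM values, both per transcript. The basis on which the 10720 listed transcripts were picked is not stated, and 404 of them, in 172 genes, hold values identical to another row. These were kept, since summed counts were then whole more often (32.0% against 0.58% of these genes).

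Here counts were summed per gene ID over 7902 genes, rounded and tested with edgeR 4.0.16 in R 4.3.3 (TMM factors, quasi-likelihood test, Benjamini-Hochberg adjustment over all tested genes) in 1 fit of the 12 libraries, after edgeR's filter on low counts. Changes beyond 2-fold were tested with glmTreat at a log2 threshold of 1. Totals differed little between libraries, so counting error was similar in each, and intervals from counts cover counting error only. Of the gene IDs 7881 matched RefSeq (GRCm38.p6), the source of transcript numbers, promoter sequences and coordinates. Date-like symbols of 14 genes were restored from their IDs.

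Alternatives were DESeq2 1.42.0, its size factors in edgeR, other count filters (none, or 1 CPM in 4 libraries), the 8 compared libraries alone, the replicate number as a block, a scale without hair and muscle genes, whole-library depth, limma 3.58.1 on log2(FPKM + 1) and log2(FPKM + 0.1) over genes with a mean of at least 0.5 FPKM, and each library left out. Named genes were the first 3 tested members of a list, its members with the smallest p in each direction, and the 10 largest rises and 10 largest falls outside the hair and muscle lists with no overlap and a mean of at least 10 CPM. Other list members are named with their value. Some list members are counted but not reported here by name. The comparison, the lists and the members were chosen with earlier results of these data known.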

Additional observations from a re-analysis of the deposited data

Results flagged for a closer look

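A library was singled out where its gap to the nearest of the other 3 libraries of its group, divided by the whole range of the group, exceeded Dixon's 95% critical value for 4 samples. This screen covered 652 groups of 4 libraries and singled out 51, where chance alone gives about 1 in 20. In what follows the level in the library that stood apart is in CPM, and the range of the other 3 libraries of its group is in parentheses.

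Model 03 was the high library for Aloxe3 at 25.4 (18.3 to 19.3), C1qa at 287 (134 to 154), Dmkn at 1054 (484 to 574), Fasn at 1886 (884 to 977) and Fbn2 at 21.4 (13.1 to 14.3). It was likewise high for Gpd1 at 488 (252 to 269), Irs1 at 89.1 (77.6 to 79.4), Itgb4 at 3.17 (0), Lyz2 at 947 (345 to 434) and Npc2 at 555 (327 to 362). Further high values there were Psmb9 at 20.2 (11 to 11.6), Retnla at 431 (131 to 151), Sbsn at 1235 (645 to 718), Snap23 at 0.595 (0) and Sprr1a at 2324 (1408 to 1547). The same library was high for Wnt2 at 4.86 (1.95 to 2.37). Model 03 was the low library for Cct2 at 451 (605 to 628), Ddb1 at 639 (699 to 704), Gclm at 88.7 (107 to 108), Gja1 at 1914 (2794 to 2951) and Trp63 at 417 (497 to 508). In Model 03, the epidermal differentiation and cornified envelope list made up 1.37% of the summed count (0.907% to 0.982%). In Model 03, the sebocyte list made up 1.46% of the summed count (0.609% to 0.653%). In Ctrl 04, the Wnt pathway list made up 0.242% of the summed count (0.231% to 0.233%). In Ctrl 04, the adipocyte list made up 0.734% of the summed count (0.862% to 0.867%).

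Ctrl 01 stood apart for Ddb1 at 476 (544 to 550), Gpx3 at 3953 (2644 to 2731), Npc1 at 144 (119 to 122), Slc7a11 at 2.43 (0) and Trp63 at 172 (134 to 137). Ctrl 02 stood apart for Calhm4 at 0.994 (0) and Cdkn2b at 10.7 (8.29 to 8.7). Ctrl 03 stood apart for Areg at 7.84 (1.99 to 2.81), Cemip at 2.04 (0.971 to 0.995), Has3 at 25.7 (8.31 to 9.73), Id4 at 39.1 (48.9 to 50.7) and Igf1 at 302 (270 to 274). In Ctrl 03 this also held for Krt17 at 801 (663 to 677) and Lck at 0.215 (0). Ctrl 04 stood apart for Atf3 at 109 (46.3 to 53), Cdh3 at 23.9 (22), E2f1 at 24.2 (26.1 to 26.4), Retnla at 771 (1811 to 1905) and Wnt3a at 7.56 (4.53 to 4.94). In Ctrl 04 this also held for agouti (symbol a) at 0.108 (0). Model 02 stood apart for Calhm4 at 906 (428 to 465), Lamb2 at 81.7 (137 to 143) and Ptch1 at 176 (96.4 to 107). Model 04 stood apart for Adamts18 at 55 (28.8 to 32.1), Slc37a4 at 1.3 (0) and Vdr at 721 (561 to 584).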

How the results depend on the processing

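Of 18 alternatives, none changed by more than 1.5 times the counts of genes that rose or fell, and the counts beyond 2-fold moved by more than this with limma alone, where 7234 genes passed the FPKM minimum. With limma on log2(FPKM + 1), 1624 genes changed beyond 2-fold and 703 fell, and on log2(FPKM + 0.1) 953 fell. Leaving out each of the 8 libraries in turn gave 3616 to 3819 rises and 3099 to 3246 falls (6724 to 7065 in all), and beyond 2-fold 1216 to 1437 rises and 1236 to 2035 falls (2469 to 3472 in all). With the replicate number as a block 3654 genes rose and 3169 fell, and beyond 2-fold 1261 rose and 1549 fell. The numbers are not said to pair the samples, and the correlations of same-numbered Ctrl and Model deviations were -0.01, 0.06, 0.08 and 0.02. The block ended the calls of Cxcl2 (adjusted p = 0.137), Erg (0.052) and Galk1 (0.0635).

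The median of the proteasome list was -0.11 with DESeq2's size factors and with DESeq2, that of the endoplasmic reticulum stress list was 0.053 with whole-library depth, 0.049 with limma on log2(FPKM + 1) and 0.040 on log2(FPKM + 0.1), and that of the NRF2 list was 0.24 over its 9 genes with whole summed counts, a choice made after seeing the data. Psma2 and Psmb4 had -0.10 each with DESeq2's size factors and with DESeq2. The other 55 list medians kept their sign in every alternative run. Counts per list were also recomputed without Model 02, without Model 03 and with DESeq2's size factors, chosen after seeing the data. The direction with more calls was the same in all 58 lists without either library and in 57 with DESeq2's size factors, where the barrier lipid list had 5 rises and 5 falls. With these size factors rises changed by more than 1.5 times for chaperones (14 to 9), lysosome and autophagy (8 to 5), the insulin list (8 to 5) and the proteasome (3 to 1). Fatty acid oxidation had 3 rises, and 5 without Model 03. The other such changes were from 2 genes to 1 or from 1 to 2. Depth limits genes at a few counts, and partly listed genes limit every list.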
